A study of Mus musculus with 34 samples.

Results

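A set of 13411 AP-1 binding loci had a peak in thioglycollate-elicited macrophages (TGEMs) of BALB/cJ mice and no AP-1 peak in any C57BL/6 list. They were found by joining the peaks of the 10 BALB/cJ AP-1 lists that overlapped by at least 1 bp into 58778 loci, and by keeping those that overlapped no peak of the 12 wild-type and 3 PPARg-knockout AP-1 lists of C57BL/6. They made up 22.8% (95% Wilson interval 22.5 to 23.2) of the BALB/cJ loci, and the other 45367 are called shared. All 25 AP-1 lists of the series together held 70649 loci. The members were chosen by the presence or absence of AP-1 peaks in these lists. Their AP-1 lists, counts and treatments are therefore described without a test. Intervals of differences are given for readouts that the choice did not use. Of these, the PU.1, CEBPa and PPARg peaks come from C57BL/6, so their overlap is not independent of the choice.

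The lists came from ChIP-seq, which sequences the chromatin that an antibody to a DNA-binding protein recovers. TGEMs are macrophages that gather in the peritoneum after an injection of thioglycollate. They were collected 3 days later from male mice aged 8 weeks of the strains labelled Balb/cJ and C57Bl/6EiJ (written here as BALB/cJ and C57BL/6, the latter named C57Bl/6J in the study's methods), and treated in culture with PBS (Veh) or with 100 ng/mL of KLA for 1 h. KLA is a lipid A that activates TLR4. In BALB/cJ the antibodies were against ATF3, Jun, JunD, Fos and JunB with each treatment. In wild-type C57BL/6 they were against the same monomers and FosL2 with each treatment, PU.1 and CEBPa with each treatment, and PPARg with Veh. The PPARg-knockout TGEMs (labelled PPARgKO) were treated with Veh and gave lists for ATF3, Jun and JunD, and how the gene was deleted is not given in the sources used here. PU.1, CEBPa and PPARg were not measured in BALB/cJ, so every overlap with them is with a peak of the other strain. Each condition had 1 list from which peaks not reproducible between replicate experiments had been removed, so no spread between replicates can be given. Intervals cover counting error over loci, which are not independent animals. In bulk chromatin, binding in few cells and weak binding in many cannot be told apart.

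The counts of a BALB/cJ list summed to between 387471 and 3569846 in 8 lists. Those of their C57BL/6 counterparts summed to between 466030 (Jun Veh) and 10395306 (JunD KLA, against 2097197 in BALB/cJ). The BALB/cJ Fos Veh list was empty and the JunB Veh list held 9 peaks, so absence from these lists says little. Some BALB/cJ lists were longer than their C57BL/6 counterparts, with 40459 against 24365 peaks for Fos KLA, 21667 against 13375 for JunB KLA and 28652 against 19653 for JunD Veh. When each longer list was cut to the length of its counterpart by count, 7094 loci (14.7% of the BALB/cJ loci) lacked a C57BL/6 AP-1 peak. When the strongest 50% of each BALB/cJ list was set against whole C57BL/6 lists, 867 loci (3.15%) did. No expression was measured in these files. Of the genes of the macrophage lineage and surface list, 28 of 30 had a BALB/cJ AP-1 locus in the gene or within 5 kb. The list for other cells of the peritoneum had 10 of 20, and all protein-coding genes 57.8%. Lists for the TLR4 response (38 of 38), the interferon response (28 of 28) and lipid and lysosome (25 of 25) were as high, so the share is not particular to lineage genes.

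AP-1 is a family of leucine zipper proteins that bind DNA as pairs of Jun, Fos and ATF monomers. They recognise the TRE (TGACTCA) and, with 1 more base in the middle, the CRE (TGACGTCA). In macrophages, signal-dependent AP-1 binds largely at sites where the lineage factors PU.1 and CEBPa have opened the chromatin, and the Fos and JunB genes are induced within the first hour of TLR4 signalling. PPARg is a nuclear receptor that acts in lipid handling by macrophages.

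The central 200 bp of 6 members show what the most widely bound loci look like in the reference genome. They are the highest ranked by number of lists and then by mean percentile among members that overlap no exon. The sequences are those of the plus strand of GRCm38 (C57BL/6J), 5′ to 3′, and not of BALB/cJ, and capitals mark a TRE on either strand (TGACTCA or its reverse complement TGAGTCA). The windows are chr8:84420641-84420840 (Cacna1a), chr9:105764795-105764994 (Col6a6), chr15:64101976-64102175 (nearest gene start Fam49b), chr15:68128000-68128199 (Zfat), chr2:155624933-155625132 (Myh7b) and chr10:88008789-88008988 (nearest gene start Pmch).
Cacna1a: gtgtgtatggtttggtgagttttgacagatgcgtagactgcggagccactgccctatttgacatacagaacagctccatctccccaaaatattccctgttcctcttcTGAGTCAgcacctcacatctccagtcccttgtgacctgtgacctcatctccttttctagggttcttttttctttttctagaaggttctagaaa
Col6a6: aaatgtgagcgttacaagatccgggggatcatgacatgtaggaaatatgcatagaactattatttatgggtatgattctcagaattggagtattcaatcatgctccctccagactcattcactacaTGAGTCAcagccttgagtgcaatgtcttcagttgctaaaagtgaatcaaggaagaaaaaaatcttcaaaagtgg
Fam49b: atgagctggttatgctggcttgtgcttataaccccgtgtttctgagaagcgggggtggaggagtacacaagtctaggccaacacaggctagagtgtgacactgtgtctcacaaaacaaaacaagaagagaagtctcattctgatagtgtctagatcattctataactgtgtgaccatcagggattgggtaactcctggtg
Zfat: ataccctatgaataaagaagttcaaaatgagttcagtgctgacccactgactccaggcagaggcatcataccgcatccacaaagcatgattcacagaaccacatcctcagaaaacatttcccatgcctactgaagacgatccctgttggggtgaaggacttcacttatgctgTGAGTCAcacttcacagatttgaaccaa
Myh7b: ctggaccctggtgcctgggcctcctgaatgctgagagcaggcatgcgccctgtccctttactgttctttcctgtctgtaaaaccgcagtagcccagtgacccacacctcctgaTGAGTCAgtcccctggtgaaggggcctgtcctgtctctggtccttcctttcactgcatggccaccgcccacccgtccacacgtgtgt
Pmch: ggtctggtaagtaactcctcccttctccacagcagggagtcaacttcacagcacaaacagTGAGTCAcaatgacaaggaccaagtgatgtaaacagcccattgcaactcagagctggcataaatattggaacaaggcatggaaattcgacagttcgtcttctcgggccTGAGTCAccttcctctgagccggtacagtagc
Of these windows, 4 held 1 TRE, the window near Pmch held 2, and that near Fam49b held none. Each was at most 19.5% masked as repeat. By the way the members were chosen, C57BL/6 had no AP-1 peak at any of them. The letters printed are those of the C57BL/6J reference, and whether BALB/cJ differs in them was not tested.

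The locus in an intron of Cacna1a, which encodes a subunit of a voltage-gated calcium channel, was the strongest member in 3 lists. It lay at chr8:84420584-84420896, 32300 bp inside the gene and 80702 bp from the nearest C57BL/6 AP-1 peak. Its counts in Veh were 108 for ATF3, 163 for JunD and 83 for Jun, and in KLA 130 for ATF3, 163 for JunD, 74 for Jun, 170 for Fos and 75 for JunB. All but 2 of these counts were above the 90th percentile of their list, and JunD had the same count with and without KLA. No PU.1, CEBPa or PPARg peak of C57BL/6 overlapped it.

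The locus in an intron of Col6a6, a collagen VI chain, stood 121636 bp from the nearest C57BL/6 AP-1 peak (chr9:105764745-105765043). Its counts were 73 for ATF3, 81 for JunD and 48 for Jun in Veh, and 138, 107 and 53 for the same monomers in KLA, with 183 for Fos and 100 for JunB. ATF3, JunD and Jun each had a higher count in KLA there, although counts are not scaled between lists. The locus 82.2 kb upstream of Pmch, a gene for a neuropeptide precursor, had counts of 78 for ATF3, 86 for JunD and 24 for Jun in Veh and of 176, 139 and 53 in KLA, with 244 for Fos and 98 for JunB. It was in the 96th percentile of the Fos KLA list but in the 31st of the Jun Veh list, so its rank differed between monomers.

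The loci in introns of Zfat, a zinc finger gene, and of Myh7b, a myosin heavy chain gene, had Fos KLA counts of 183 and 169 and JunD Veh counts of 100 and 129. They lay 47443 and 1912 bp from a C57BL/6 AP-1 peak. The locus nearest the start of Fam49b lay in an intron of Asap1 and had counts of 195 for Fos KLA and 101 for JunD Veh, 1112 bp from a C57BL/6 AP-1 peak. These 3 loci had no peak of the other 3 factors.

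The remaining loci among the 12 ranked highest had their nearest protein-coding start at Ada (adenosine deaminase), Pkd2l2, Fcho2, Ndfip2, Psat1 (an enzyme of serine synthesis) and Fto (an RNA demethylase). All 12 had peaks in 8 lists. A TRE was found in 8 of the 12, a PU.1 peak at 2, and none of the 3 factors at 9. Their distance to the nearest C57BL/6 AP-1 peak ran from 449 bp at the locus nearest Fcho2, in a non-coding exon annotated within Tnpo1, to 263910 bp at the locus nearest Psat1.

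The strongest member peaks of the other lists were at different loci. A locus 6.15 kb upstream of Tbc1d7 (chr13:43177502-43177798) had the highest member count of the ATF3 KLA list, 241, and of the Fos KLA list, 305, where the highest counts of the whole lists were 385 and 467. Its counts in Veh were lower, with 41 for ATF3, 49 for JunD and 17 for Jun. The highest JunD KLA count, 170, was at a locus 17726 bp downstream of the start of Mrps23 (chr11:88221964-88222264). The highest JunB KLA and Jun KLA counts, 153 and 78, were at Ifi202b. The 1 member peak of the JunB Veh list, with a count of 25, lay in a coding exon of Actb (chr5:142903711-142903980).

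Most members were bound in a single list. A peak in 1 list was found at 9199 members (68.6%), in 2 lists at 2453, in 3 at 1022, in 4 or 5 at 572 and in 6 or more at 165. Of the shared loci, 17.5% had a peak in 1 list and 28.1% in 6 or more. Put the other way, 53.6% of the BALB/cJ loci with a peak in 1 list lacked a C57BL/6 AP-1 peak (52.9 to 54.4, n = 17148), against 5.94% with 4 lists, 1.20% with 7 and 0.563% with 8. Over all loci in 6 or more lists the share was 1.28% of 12893. The number of lists is itself part of the choice of members, so this fall is a description.

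**Figure D1:**
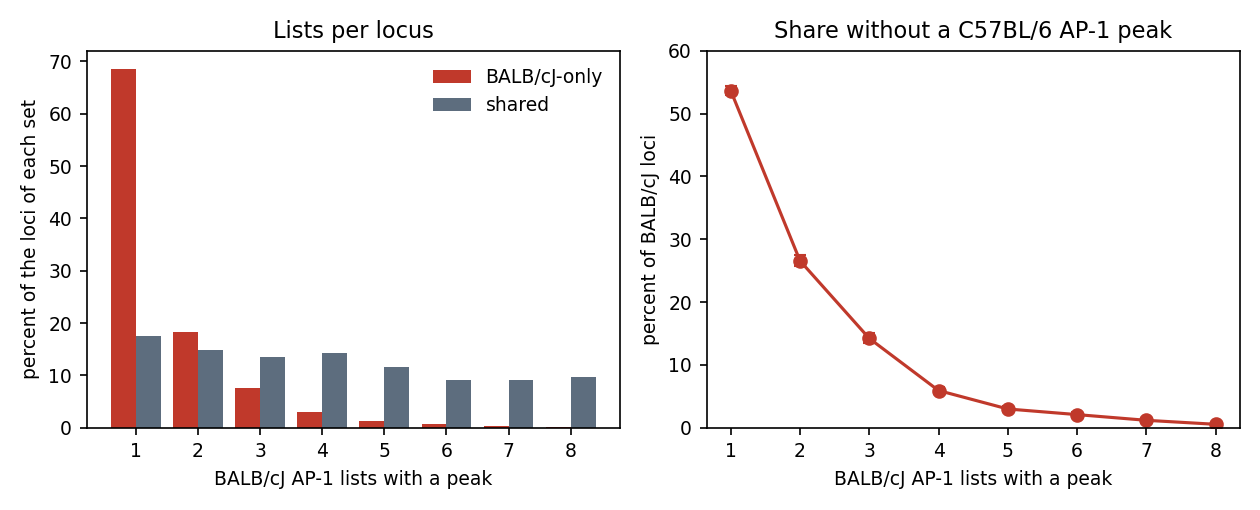
Left, percent of the BALB/cJ-only loci (red) and of the shared loci (grey) by the number of BALB/cJ AP-1 lists with a peak at the locus. Right, percent of BALB/cJ loci that overlap no C57BL/6 AP-1 peak by the number of lists, with 95% Wilson intervals. The share goes from 53.6% at 1 list to 0.563% at 8, and the 6 loci with 9 lists, all shared, are left out.

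JunD was the monomer found at most members. It had a peak at 7892 (58.8%), Fos at 5379 (40.1%), ATF3 at 4666 (34.8%), JunB at 1097 (8.18%) and Jun at 519 (3.87%). At shared loci the shares were 80.4% for JunD, 76.8% for Fos, 78.3% for ATF3, 45.2% for JunB and 35.7% for Jun, so Fos stood above ATF3 at members and below it at shared loci. JunD was the lone monomer at 4952 members (36.9%), Fos at 2299 (17.1%), ATF3 at 1912 (14.3%), JunB at 201 and Jun at 81. All 5 monomers were found at 142 members (1.06%), compared with 11585 shared loci (25.5%). The most frequent pairs at members were Fos with JunD (823 loci), ATF3 with Fos (712) and ATF3 with JunD (590).

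The same unevenness showed in the lists. Member loci held 4343 of the JunD Veh peaks (15.2%), 5381 of the Fos KLA peaks (13.3%), 4273 of the JunD KLA peaks (12.6%) and 3850 of the ATF3 KLA peaks (10.5%). They held 1224 of the ATF3 Veh peaks (6.27%), 1096 of the JunB KLA peaks (5.06%), 295 of the Jun Veh peaks (2.69%), 261 of the Jun KLA peaks (2.31%) and 1 of the 9 JunB Veh peaks (11.1%). The Jun lists, the shortest apart from JunB and Fos in Veh, thus had the smallest shares. Apart from the JunB Veh list of 9 peaks, the 4 largest shares were in lists longer than their C57BL/6 counterparts. ATF3 KLA was longer by little (36821 against 36745 peaks), and JunD KLA had 33850 against 31640. The JunB KLA list, with a share of 5.06%, was longer as well. Whether length bears on the share of a list was not tested.

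Peaks at members ranked low. Their median count percentile within a list lay between 12.7 (ATF3 Veh) and 16.1 (Jun KLA) in the 8 long lists, against 51.8 to 57.02 for peaks at shared loci. The median count was 35 at members and 73 at shared loci for Fos KLA, 22 and 48 for JunD Veh, and 20 and 31 for Jun Veh. The upper quartile of members stayed at or below the 33.9th percentile, reached in Jun Veh. Between 2 and 15 member peaks per long list were in its strongest 10%, and between 25 and 468 in its strongest 50%.

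**Figure D2:**
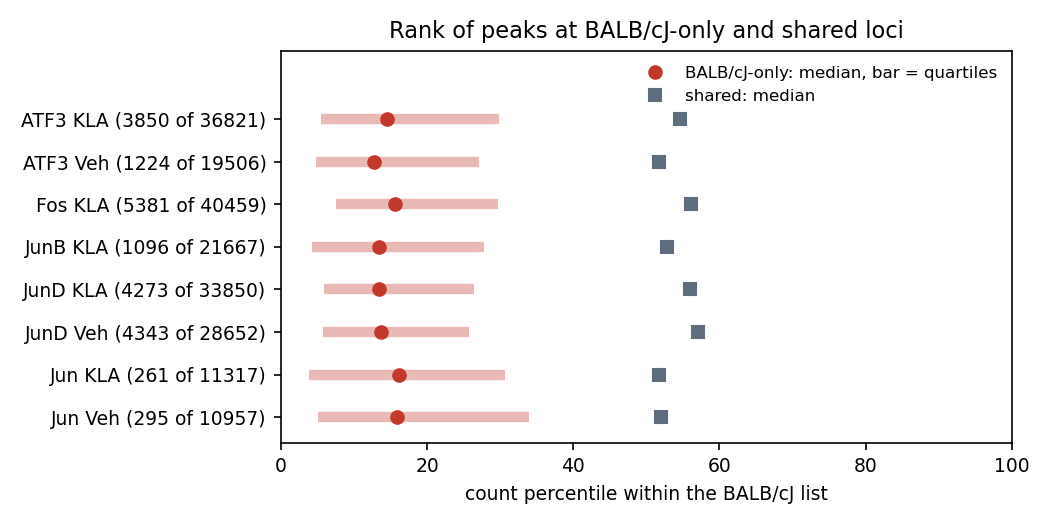
Count percentile within each of the 8 long BALB/cJ lists (0 is the weakest peak) for peaks at BALB/cJ-only loci (red, median with a bar between the quartiles) and at shared loci (grey squares, median). The labels give the number of member peaks of all peaks in the list. Member medians sit between 12.7 and 16.1 and shared medians between 51.8 and 57.02.

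KLA and Veh peaks seldom coincided at members, most of which had a peak in 1 list alone. Peaks were found with KLA and not with Veh at 8224 members (61.3%), with Veh and not with KLA at 3539 (26.4%), and with both at 1648 (12.3%). The shared loci divided as 37.8%, 7.87% and 54.3%. For Fos and JunB the treatments cannot be compared, since the Fos Veh list was empty and the JunB Veh list held 9 peaks. The 2299 members with a Fos KLA peak alone and the 201 with a JunB KLA peak alone thus had almost no Veh list of their monomer. A locus in 1 list cannot have both, and 68.6% of members and 17.5% of shared loci were in 1 list. Of loci in 2 or more lists, 1648 of 4212 members and 24644 of 37418 shared loci had both. Within single monomers, 32.8% of the 1224 members with an ATF3 Veh peak also had an ATF3 KLA peak, compared with 84.8% of shared loci. For JunD the shares were 16.6% of 4342 members and 70.8% of shared loci, and for Jun 12.5% of 295 and 51.4%. The share of members with KLA peaks alone ran from 53.4% without the Fos KLA list to 86.8% without the JunD Veh list, and 2812 of the 3539 members with Veh peaks alone had a JunD Veh peak and no other.

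PU.1 occupancy in C57BL/6 was lower at the members than at the shared loci. A PU.1 peak of either treatment overlapped 3435 of the 13411 members (25.6%, 24.9 to 26.4) and 26335 of the 45367 shared loci (58.0%, 57.6 to 58.5), a difference of -32.4 percentage points (95% Newcombe interval -33.3 to -31.6). CEBPa peaks overlapped 629 members (4.69%) and 32.6% of shared loci (difference -27.9 points, -28.5 to -27.4). PPARg peaks overlapped 1732 members (12.9%) and 45.5% of shared loci (-32.5 points, -33.3 to -31.8). None of the 3 factors was found at 8779 members (65.5%), against 23.7% of shared loci. The shared loci have a C57BL/6 AP-1 peak by the way they were chosen and the factor lists come from that same strain, so both sets were read in C57BL/6 chromatin. The overlap is therefore not independent of the choice. Whether the choice alone gives a difference of this direction was not tested.

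The PU.1 Veh list overlapped 19.8% of members and the PU.1 KLA list 20.9%, compared with 45.3% and 53.0% of shared loci. CEBPa Veh and KLA peaks overlapped 3.18% and 3.06% of members. Members with Veh peaks alone carried PU.1 more often, at 34.4% (32.9 to 36.0), than members with KLA peaks alone, at 20.2% (19.3 to 21.1). Members with a JunD Veh peak and no other peak had a PU.1 peak in 35.3% of 2812 cases, those with a Fos KLA peak alone in 17.1% of 2299, and those with an ATF3 KLA peak alone in 16.8% of 1350. Shared loci of the same 3 classes had PU.1 in 57.2%, 36.9% and 32.5%.

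The gap was widest at loci in 6 or more BALB/cJ lists. At loci in 1 list, PU.1 overlapped 24.8% of members and 42.4% of shared loci (-17.6 points, -19.0 to -16.2). At loci in 6 or more lists it overlapped 17.0% of members (12.01 to 23.4, n = 165) and 76.8% of shared loci (-59.8 points, -64.9 to -53.3). For CEBPa the 165 members in 6 or more lists had 3 overlaps (1.82%), compared with 54.9% of shared loci, and for PPARg 14 overlaps (8.48%), compared with 70.4%. None of the 3 factors was found at 126 of these 165 members (76.4%, 69.3 to 82.2) and at 6.62% of the shared loci in as many lists. Members ranked lower than shared loci, and the differences over all loci were smaller within strata of strength. Over 10 strata of the best count percentile they were -18.3 points for PU.1 (-19.3 to -17.2), -12.8 for CEBPa (-13.4 to -12.1) and -18.2 for PPARg (-19.1 to -17.3).

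**Figure D3:**
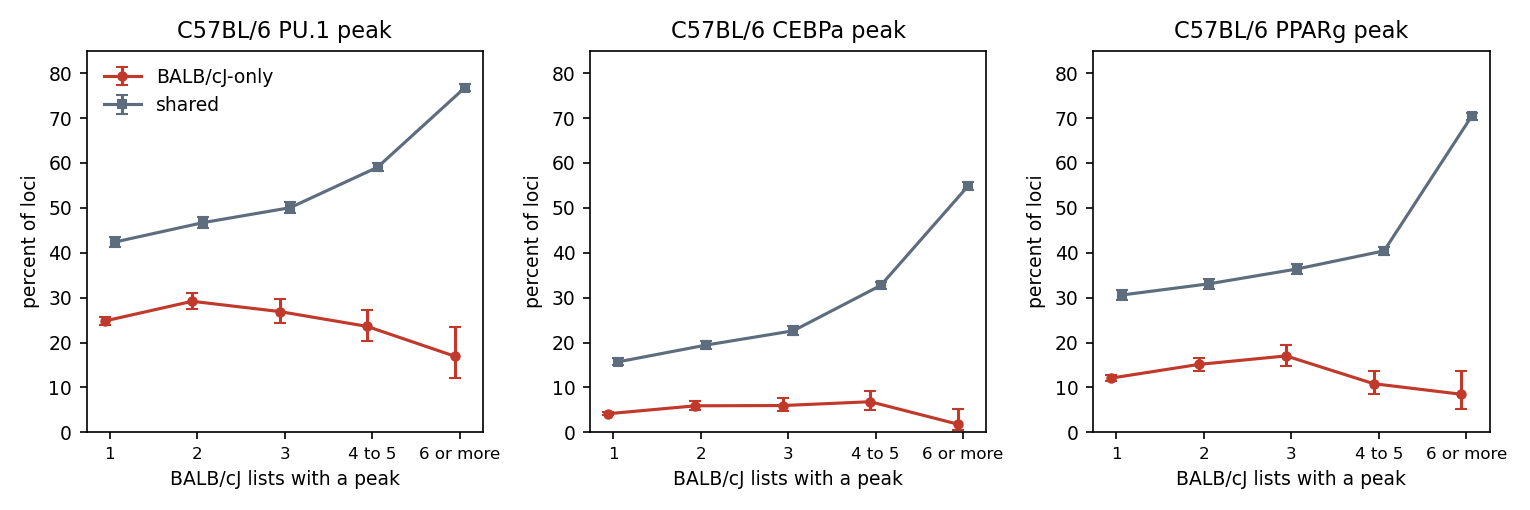
Percent of BALB/cJ-only (red) and shared (grey) loci that overlap a PU.1, CEBPa or PPARg peak of C57BL/6, by the number of BALB/cJ AP-1 lists with a peak, with 95% Wilson intervals. The shared share of PU.1 goes from 42.4% to 76.8% with more lists, and that of members from 24.8% to 17.0%.

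The TRE was rarer at members than at all shared loci, but not than at shared loci in as many lists. Letters were read in the C57BL/6J reference and not in BALB/cJ, so sites gained or lost in BALB/cJ are not seen. Over all loci, a TRE stood in the central 200 bp of 2776 members (20.7%) and of 27.2% of shared loci, a difference of -6.48 points (-7.28 to -5.68). Within loci of equal numbers of lists the direction turned. A TRE was found in 18.5% of members and 17.1% of shared loci in 1 list (1.47 points higher, 0.325 to 2.62), in 23.6% and 20.2% in 2 lists (3.36 points, 1.46 to 5.32), and in 42.4% and 38.9% in 6 or more lists (3.54 points, -3.79 to 11.2). The intervals for 3 lists and for 4 or 5 lists also included 0. The Mantel-Haenszel difference over strata of 1, 2, 3 and 4 or more lists was 1.75 points (0.838 to 2.65). Over 10 strata of strength it was 1.39 points (0.448 to 2.33). Over all 58778 BALB/cJ loci, 25.7% of windows of this length held a TRE. The median distance from the TRE to the centre of the locus was 24 bp at members and 23 bp at shared loci.

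Members differed among themselves in the TRE by list and treatment. Of the members with a Fos KLA peak alone, 31.8% held a TRE (29.9 to 33.7), compared with 28.1% (26.3 to 29.9) of shared loci with that peak alone. The shares for an ATF3 KLA peak alone were 22.5% (20.4 to 24.8) and 16.5% (14.6 to 18.5), and for a JunD KLA peak alone 14.3% and 13.3%. For a JunD Veh peak alone they were 10.7% and 11.2%, with overlapping intervals. For a JunB KLA peak alone they were 24.4% and 27.7%, also with overlapping intervals. Members with Veh peaks alone held a TRE in 10.5% and members with KLA peaks alone in 24.7%, compared with 8.96% and 26.8% of shared loci. The CRE was rare, at 1.13% of members, 1.64% of shared loci and 1.52% of all BALB/cJ loci.

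The letters ACTTCCT on either strand, the core of a PU.1 site, stood in the central 200 bp of 15.9% of members and 19.3% of shared loci (-3.41 points, -4.12 to -2.69), and of 18.5% of all BALB/cJ loci. The difference was -7.12 points (-11.7 to -0.890) at loci in 6 or more lists and -0.426 points (-2.15 to 1.37) at loci in 2. Over 10 strata of strength the difference was -2.30 points for these letters and -18.3 for PU.1 peaks. Letters and peaks differ in how common they are, and how the letters relate to PU.1 binding was not tested. These letters too are those of the C57BL/6J reference. In 6.94% of members more than 50% of the central window was masked as repeat, compared with 3.65% of shared loci (3.296 points, 2.84 to 3.77), and whether mapping in repeats bears on the calls was not tested. GC content had a median of 48% at members and 48.5% at shared loci, and the median width was 260 and 293 bp.

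**Figure D4:**
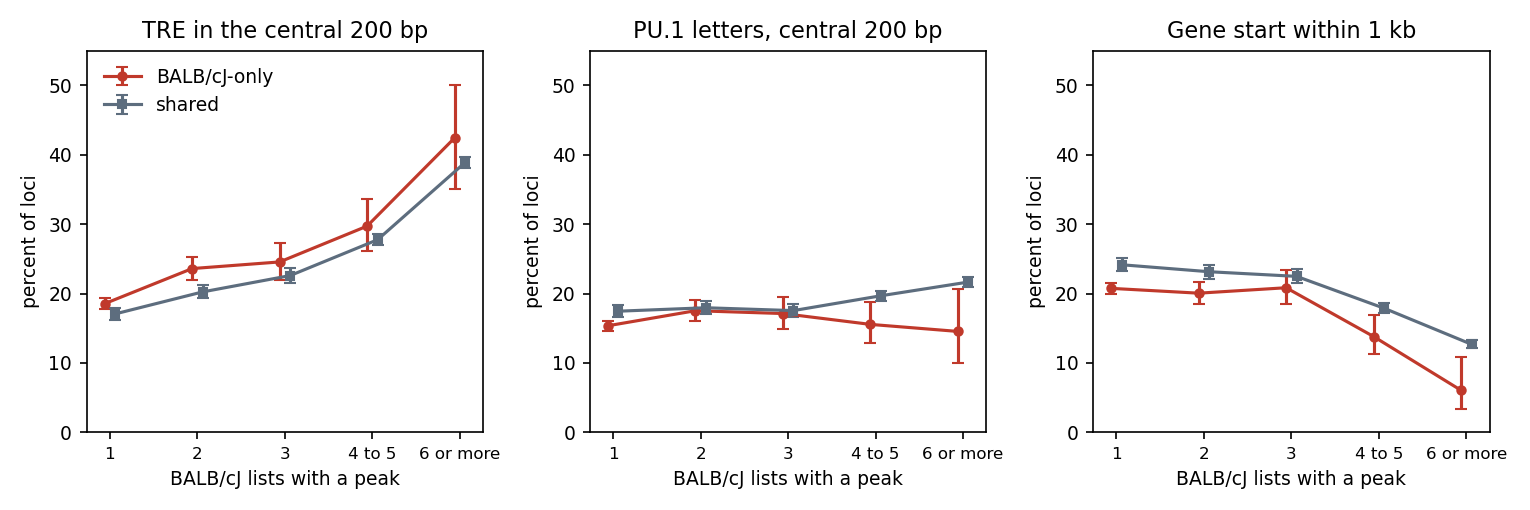
Percent of BALB/cJ-only (red) and shared (grey) loci with a TRE in the central 200 bp, with the PU.1 letters there, and with a gene start within 1 kb of the centre, by the number of BALB/cJ lists with a peak and with 95% Wilson intervals. Letters are those of the C57BL/6J reference. The TRE goes from 18.5% to 42.4% of members, above the shared loci in each class with intervals of the difference that exclude 0 in 1 and 2 lists, whereas gene starts go from 20.8% to 6.06%, below the shared loci in each class.

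Members and shared loci differed by at most 2.20 points in the kinds of sequence they lay in. An intron of a protein-coding gene held 5787 members (43.2%) and 42.8% of shared loci (0.320 points, -0.632 to 1.28), and 33.2% and 35.4% lay between genes (-2.20 points, -3.10 to -1.28). Coding exons held 239 members (1.78%) and 1.12% of shared loci (0.658 points, 0.424 to 0.914), and UTRs 2.74% and 2.19% (0.543 points, 0.246 to 0.861). The centre lay within 1 kb of an annotated gene start at 2703 members (20.2%) and 18.9% of shared loci (1.22 points, 0.456 to 1.99). This excess did not hold within numbers of lists, where the share was lower at members in each class, such as 20.8% and 24.2% in 1 list and 6.06% and 12.7% in 6 or more, with an interval including 0 for 3 lists alone. Over strata of 1, 2, 3 and 4 or more lists the Mantel-Haenszel difference was -3.10 points (-4.01 to -2.19).

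The members were often near a C57BL/6 AP-1 peak without touching it. The median distance was 2696 bp, 4468 members (33.3%) were within 1 kb, 1388 (10.3%) within 200 bp and 60 within 10 bp. These 60 had a median best percentile of 18.2 and a PU.1 peak in 31.7%, while the 40 loci just on the other side, which overlapped a C57BL/6 AP-1 peak by 1 to 10 bp, had 21.4 and 45%. Members in more lists stood farther away, with a median of 2363 bp for 1 list, 5790 bp for 4 or 5 and 16988 bp for 6 or more. Of the last, 53.9% were more than 10 kb from any C57BL/6 AP-1 peak. The 3 knockout lists removed 2776 of the 16187 BALB/cJ loci that lacked a wild-type C57BL/6 AP-1 peak.

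Chromosomes 1 to 19 each had between 21.1% and 24.1% of their BALB/cJ loci among the members, and chromosome X had 30.7% (332 of 1081, 28.0 to 33.5). The difference between X and chromosomes 1 to 19 was 8.04 points (5.34 to 10.9). On X, 60.7% of the loci in 1 list and 33.9% of those in 2 lists were members, compared with 53.5% and 26.4% on chromosomes 1 to 19 (7.18 points, 2.22 to 11.9, and 7.48 points, 0.741 to 14.9). At loci in 3, in 4 or 5 and in 6 or more lists the differences were 1.07, 0.680 and -0.602 points, with intervals that included 0. In the opposite direction, 13.1% of the C57BL/6 loci on X lacked a BALB/cJ AP-1 peak, within the range of chromosomes 1 to 19 (11.6% to 16.2%). None of 5 BALB/cJ loci on Y was a member, which allows a share of up to 43.4% (Wilson).

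**Figure D5:**
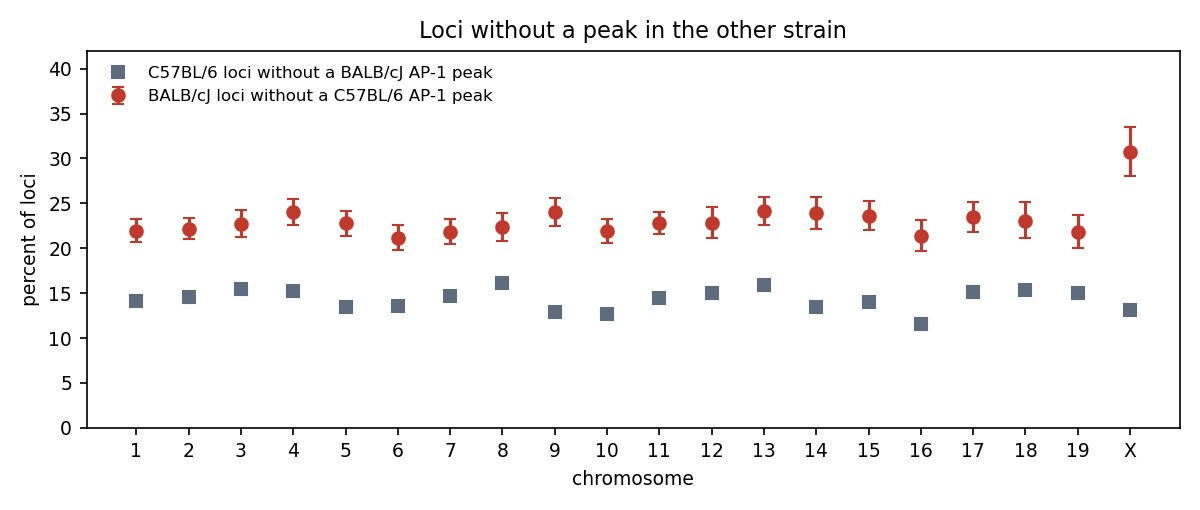
Percent of BALB/cJ AP-1 loci without a C57BL/6 AP-1 peak by chromosome (red, with 95% Wilson intervals) and percent of C57BL/6 wild-type AP-1 loci without a BALB/cJ AP-1 peak (grey squares). Chromosome X stands at 30.7% in red, above chromosomes 1 to 19 at 21.1% to 24.1%, and at 13.1% in grey. Chromosome Y, with 5 BALB/cJ loci, is not drawn.

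Members were spread over 1873 of the 2028 windows of 1 Mb with a BALB/cJ locus. Windows with many members were mostly windows with many loci. The most members, 40 of 114 loci, fell in 129 to 130 Mb of chromosome 2, where 13 had their nearest start at Il1b and 5 at Il1a, genes of interleukin 1. Then came 44 to 45 Mb of chromosome 13 with 39 of 121 (24 nearest Jarid2 and 11 nearest Cd83), 95 to 96 Mb of chromosome 3 with 38 of 144 (9 nearest Mcl1), 102 to 103 Mb of chromosome 2 with 34 of 123 (21 nearest Cd44) and 97 to 98 Mb of chromosome 11 with 32 of 99. In these 5 windows the median percentile of members was between 8.73 and 15.6, and 0 to 2 members per window were in 4 or more lists. Those in the most lists were a locus between genes 444703 bp from Cd83 with peaks in 8 lists (Fos KLA count 113, JunD Veh count 31), and a locus in an intron of Ctss, the cathepsin S gene, with peaks in 7 lists (Fos KLA count 147, JunD Veh count 40).

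Across windows with 20 or more BALB/cJ loci, the members' share had a median of 21.7% (quartiles 16.7% and 26.8%). The dispersion of the share relative to a binomial draw was 1.47 there. Among loci of 4 or more lists it was 1.86, across 979 windows with 10 or more such loci. Windows at the high end were found after their values were seen. Members made up 21 of 27 loci (77.8%) in 9 to 10 Mb of chromosome 18, 21 of 28 (75%) in 47 to 48 Mb of chromosome 9 and 17 of 23 (73.9%) in 31 to 32 Mb of chromosome 8. C57BL/6 had 6, 7 and 7 AP-1 loci in these windows, of which 1 each lacked a BALB/cJ peak. At the low end, 91 to 92 Mb of chromosome 15 held 20 BALB/cJ loci and no member.

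Of 1759 members in 3 or more lists, 184 (10.5%) formed 51 clusters of at least 3 with gaps of up to 50 kb. Of the 30640 shared loci in 3 or more lists, which are far more numerous, 85.5% stood in such clusters. The largest were at Colec12, which encodes a scavenger receptor of the collectin family, and at Cadm1, an adhesion molecule. Between chr18:9699290 and 9742107, in and upstream of Colec12, 9 members and no shared locus were found, and 6 more members and no shared locus between 9792892 and 9828279. These loci stood at least 129571 bp from the nearest C57BL/6 AP-1 peak, none overlapped a PU.1 peak, and 6 of the 15 held a TRE. The strongest, chr18:9734861-9735149 in the gene, had counts of 56 for ATF3, 112 for JunD and 47 for Jun in Veh and of 105 for ATF3, 94 for JunD, 227 for Fos and 88 for JunB in KLA. The locus chr18:9806521-9806821 had 73, 83 and 43 in Veh, and 61 for ATF3, 45 for JunD, 90 for Fos and 39 for JunB in KLA. At the latter locus the ATF3 and JunD counts were higher with Veh than with KLA, and no Jun KLA peak was listed at either.

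The Cadm1 cluster ran from chr9:47621449 to 47687933 and held 7 members and 1 shared locus. The member chr9:47625943-47626226 had counts of 35 for ATF3 and 64 for JunD in Veh and of 60 for ATF3, 36 for JunD, 87 for Fos and 23 for JunB in KLA. The 7 members had peaks in 3 to 6 lists, 2 overlapped a PU.1 peak and 4 held a TRE. Their distances to a C57BL/6 AP-1 peak were 6026 to 26007 bp.

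Between chr12:114189077 and 114290219, in a stretch of immunoglobulin heavy chain variable genes, 6 members and no shared locus were found, and they were all the BALB/cJ AP-1 loci of that 1 Mb window. C57BL/6 had 3 AP-1 loci in the window, and all 3 lacked a BALB/cJ peak. The locus chr12:114210402-114210669 had counts of 70 for ATF3, 132 for JunD and 65 for Jun in Veh and of 102 for ATF3, 95 for JunD, 197 for Fos and 103 for JunB in KLA. The locus chr12:114189077-114189502 had 64, 96 and 37 in Veh and 126, 111, 168 and 68 in KLA. Their mean percentiles were 88.9 and 82.3, and those of the other 4 loci 18.5 to 43.3. They were at least 88486 bp from a C57BL/6 AP-1 peak and none had a PU.1 peak. How reads were assigned among the similar genes of this family was not tested.

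At Ifi202b, an interferon-inducible gene of the DNA-binding HIN-200 family, 8 of the 9 BALB/cJ AP-1 loci in the gene or within 5 kb were members, between chr1:173962703 and 173983169. The strongest, chr1:173962703-173963045 in an intron, had counts of 197 for ATF3, 255 for Fos, 153 for JunB, 157 for JunD and 78 for Jun in KLA and no peak in Veh. It ranked at the 93rd percentile or higher in each of the 5 KLA lists and lay 997 bp from a C57BL/6 AP-1 peak. The locus at the gene start, chr1:173982618-173983169, had counts of 27 for ATF3, 79 for Fos, 36 for JunB and 38 for JunD, also with KLA alone. JunD Veh peaks were present at 2 of the 8, with counts of 41 and 47, and a PU.1 peak at 1. Ifi202b has close relatives next to it (Ifi203, Ifi205, Mndal, Ifi211), and how reads were divided among them was not tested.

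Other interferon response genes carried members as well. Of 28 annotated genes of the list, 21 (75%) had a member in the gene or within 5 kb, against 30.8% of all 22028 protein-coding genes, and members were 51 of their 127 BALB/cJ loci, or 40.2%, against 23.5% over all protein-coding genes, with a locus near several genes counted once. All 28 had a BALB/cJ AP-1 locus, which 57.8% of all genes had. Rsad2, which encodes the antiviral protein viperin, had 9 of 17, Oasl1 8 of 12, and Usp18, which removes ISG15 from proteins, 3 of 5. The 8 members at Oasl1 had a peak in 1 list each, all JunD KLA. At Ifi44 both BALB/cJ loci were members. The locus covering its start (chr3:151749795-151750126) had counts of 18 for ATF3 in Veh and of 30 for ATF3, 63 for Fos, 33 for JunB and 40 for JunD in KLA and stood 303515 bp from a C57BL/6 AP-1 peak. An intronic locus of Aim2, a cytosolic DNA sensor (chr1:173448876-173449171), had 18 for ATF3 and 30 for JunD in Veh and 42 for ATF3 and 52 for Fos in KLA.

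Genes induced through TLR4 had members at 30 of 38 (78.9%), against 30.8% of all protein-coding genes, and members were 87 of their 314 loci (27.7%), against 23.5%. All 38 had a BALB/cJ AP-1 locus, compared with 57.8% of all genes. Il1b had 7 of 13 and Il1a 6 of 14, Acod1, which makes itaconate, 6 of 13, the chemokine gene Cxcl1 5 of 10, and the phosphatase gene Dusp1 6 of 31. The 7 members at Il1b had a peak in 1 list each. Most of the 87 members had a JunD KLA peak and no other, as 14.6% of all members did. Members in 3 or more lists were found at 4 of the 38 genes, Dusp1, Egr2, Relb and Tnf, against 5.32% of all protein-coding genes. A locus annotated to an intron of Dusp1 had counts of 25 for ATF3, 62 for Fos, 28 for JunB and 44 for JunD in KLA, and a locus 89 bp upstream of Relb, an NF-kB subunit, had 26 for JunD in Veh and 28, 42 and 43 for ATF3, Fos and JunD in KLA. The locus at the start of Egr2, 56 bp upstream, had 32 for ATF3, 43 for Fos and 34 for JunD, all with KLA.

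Genes of lipid handling and the lysosome had members at 20 of 25 (80%), against 30.8% of all protein-coding genes, and members were 83 of their 276 loci (30.1%), against 23.5%. All 25 had a BALB/cJ AP-1 locus. Mitf, a lysosomal and melanocyte regulator, had 14 of 43, Gpnmb 10 of 22, Ctsl 9 of 18 and Ctsd 7 of 15, the latter pair encoding cathepsins L and D. The intronic locus of Ctss described above was in 7 lists, and an intronic locus of Tfeb, a regulator of lysosomal genes, in 5, with counts of 25 for ATF3 in Veh and of 64 for ATF3, 98 for Fos, 48 for JunB and 93 for JunD in KLA.

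The other lists had shares of loci from 17.3% to 25.5%, against 23.5% over all protein-coding genes. Their shares of genes with a member were 66.7% for macrophage lineage and surface, 60% for MHC and 55% for AP-1 and related genes. They were 42.9% for C-type lectin and NK receptor genes and 30% for genes of other peritoneal cells. Over all protein-coding genes the share was 30.8%, and of the 12739 with a BALB/cJ locus 6786 had a member. Members were 14 of 55 loci (25.5%) at MHC genes, with H2-T23 at 3 of 4. None of the 20 MHC genes had a member in 3 or more lists, against 5.32% of all protein-coding genes. Members were 45 of 241 loci (18.7%) at macrophage lineage and surface genes. There Runx1 had 7 of 37, Mertk, a receptor for apoptotic cells, 5 of 20, and Tlr4, the receptor for KLA, 2 of 12. The Tlr4 locus in 4 lists was 92.5% masked as repeat. They were 13 of 60 (21.7%) at C-type lectin and NK receptor genes, 22 of 127 (17.3%) at AP-1 and related genes, of which 10 of 21 at Atf3 itself, each in 1 list, and 6 of 32 (18.8%) at genes of other peritoneal cells. Of these last, a Kit intron and the Siglecf start each carried a member in 4 KLA lists. Members of a list share genes and neighbouring loci, and no list was tested.

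In both sets, gene starts carried a smaller share of the loci in 6 or more lists than of those in 4 or 5. Within 1 kb of a protein-coding start, 58 of 737 members in 4 or more lists and 4 of 165 in 6 or more were found. In 4 or 5 lists the shares were 9.44% of members and 14.4% of shared loci, and in 6 or more 2.42% and 9.09%. The highest ranked was at Olfr370, an olfactory receptor gene, with peaks in 8 lists (chr8:83535819-83536074), with counts of 35 for ATF3, 62 for JunD and 47 for Jun in Veh and of 79, 73 and 33 in KLA, with 100 for Fos and 35 for JunB. Then came the starts of Cltb, a clathrin light chain gene, Sub1 and Ccdc93 in 6 lists each, and Ucp2, B3galnt1, Plau, Unkl, Camkmt and Ifi44 in 5. Of the 10, 4 overlapped a PU.1 peak and none held a TRE. The locus at Plau, the urokinase gene, lay 19 bp and that at Ucp2 47 bp from a C57BL/6 AP-1 peak, whereas that at Olfr370 lay 30403 bp away. The Ucp2 locus had a JunD Veh count of 100 and no JunD KLA peak.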

How the data were processed

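Peak lists of 30 of the 34 samples were analysed, and the 4 inputs were not. The authors aligned C57BL/6 reads to mm10 by Bowtie2, and BALB/cJ reads to a custom genome made from mm10 with Mouse Genomes Project alleles and shifted back to mm10, so loci are placed in mm10 sequence. They called peaks with HOMER against the input of the same treatment and kept those with an IDR under 0.05 across replicates. The deposited files give each peak a count, a whole number not scaled to library size whose combination over replicates is not given in the sources used here, and a scaled IDR score (540 to 1000, deposited by the authors), which was summarised and not tested. Counts ranked peaks within a list as percentiles (tied counts share a rank).

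Overlaps of 1 bp or more, loci, gaps and letters were computed with pysam 0.24.0, pandas 2.3.3 and numpy 2.4.6 under Python 3.11.15, and figures with matplotlib 3.10.9. Coordinates are those of the files on mm10. Sequence is GRCm38 from RefSeq and genes are GENCODE vM21. Shares have 95% Wilson intervals and differences Newcombe intervals, with Mantel-Haenszel differences over strata. No p-values were computed. Overlap, merging and intervals were tested on simulated data.

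The members, gene lists and comparisons were chosen with earlier results of these data known. Named loci were the 12 in the most lists (ties by mean percentile), the member of highest count in each list, the 10 of highest rank within 1 kb of a protein-coding start, the 2 of highest rank in the 5 windows with the most members, and up to 4 loci per gene list in a gene or within 5 kb. The clusters and the windows of high share were chosen after their values were seen. Sequence variants of BALB/cJ were not used here.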

Additional observations from a re-analysis of the deposited data

How the results depend on the processing

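The lower PU.1, CEBPa and PPARg overlap of members kept its direction, with an interval excluding 0, under each of 22 alternatives, ranging from -45.2 to -18.3, from -38.8 to -12.8 and from -42.7 to -18.2 points. So did the PU.1 letters under 21 alternatives, from -6.00 to -1.82 points. Every alternative still chose members by the absence of C57BL/6 AP-1 peaks. The TRE turned to 1.39 points over strata of strength and to 1.75 over strata of the number of lists, and was lower at members in the other 19.

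The gene start difference turned to -0.633 points when a C57BL/6 peak within 200 bp counted as shared, to -0.954 with the strongest 50% of each BALB/cJ list, to -2.48 over strata of strength and to -3.10 over strata of the number of lists. It was 1.02 points, with an interval that included 0, at loci in 2 or more lists. It was 4.58 against the 12 wild-type lists, 4.75 against the 10 of equal monomer and treatment, 2.79 with centres within 100 bp and 2.44 with 50% reciprocal overlap. Leaving out each list in turn gave 0.742 (without JunD KLA, interval including 0) to 2.12 points. The cause of these changes of direction was not tested.

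The number of members was 867 with the strongest 50%, 4212 with 2 or more lists and 7094 with BALB/cJ lists cut to the C57BL/6 length, an alternative chosen after seeing the data like the central 200 bp for factor overlap, and 10639 to 13411 with a list left out. The members' share of BALB/cJ loci was 24.3% with centres within 100 bp, 23.97% with 50% reciprocal overlap, 20.5% with peaks within 200 bp, 27.5% against the 12 wild-type lists, 28.0% against the 10 of equal monomer and treatment, 3.15% with the strongest 50%, 10.1% with 2 or more lists, 14.7% with cut lists and 19.6% to 22.8% with a list left out.

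The share of members in 2 or more lists was 33.1% against the 12 wild-type lists, 33.2% against the 10 of equal monomer and treatment, 37.4% with the strongest 50%, 26.4% with cut lists and 23.998% to 33.0% with a list left out. The share with KLA peaks alone was 57.9% against the 12 and against the 10 lists, 65.4% with the strongest 50%, 56.8% with 2 or more lists, 73.6% with cut lists and 53.4% to 86.8% with a list left out. The variance to mean ratio of members per 1 Mb window was 5.24, compared with 19.1 for the more numerous shared loci. For members it was 1.78 with the strongest 50%, 2.38 with 2 or more lists, 2.99 with cut lists and 4.29 to 5.24 with a list left out.

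No paired analysis was possible because each condition has 1 list and the labels give no replicate numbers. The number of reads behind each list and the variation between mice are not known from these lists, weak peaks make up most members, and a peak missing from a C57BL/6 list is not shown to be absent from the cells.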
